A study of Mus musculus with 12 samples.

Results

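The symbols of many mouse genes still carry the clone number of the RIKEN full-length cDNA collection followed by Rik, because nothing better was known of the transcript when it was catalogued. Of the 24421 gene symbols in the count table, 1923 ended in Rik and 865 of these had at least 1 count. The transcripts described here are the 177 of them whose counts, summed over all 12 libraries, reached 120. They were chosen by the summed count, so their levels are a description. The rule uses no fold change, but the deeper siRNA libraries weigh more in the summed count, so the members' shares and their contrast between siRNA and plasmid libraries are not independent of the choice. The members nearest the minimum were D830046C22Rik with 123 counts, 1700034H15Rik with 122 and 5031434C07Rik with 120, and the nearest rows below it were E530011L22Rik with 117 and 4930487H11Rik with 112.

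The cells were SMCC, an immortalized line of mouse small cholangiocytes, the epithelial cells of the bile ducts. In 3 libraries the cells had received an siRNA against Ctnnb1, the gene of β-catenin (si-Ctnnb1), and in 3 a control siRNA (si-CTL), both with RNAiMAX for 24 hr. In 3 others they had received a plasmid for S45Y, a stabilized β-catenin mutant, and in 3 an eGFP plasmid, both with a Lipofectamine reagent for 48 hr. Silencing means si-Ctnnb1 against si-CTL, and activation means S45Y against eGFP. The labels do not say that the 3 libraries of a group came from separate cultures, so p-values measure the spread between these libraries, which may be technical.

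RIKEN symbols cover several kinds of gene. Most are long noncoding RNAs, often transcribed in the opposite direction to a neighbouring protein-coding gene or from the same promoter region, and a minority encode proteins that have since been named. In RefSeq, 133 of the 177 were long noncoding RNAs, 42 were protein coding, 1 was a pseudogene and 1 had no entry. RefSeq had renamed 22, of which 18 code for proteins. Among these are Cyren (3110062M04Rik), a regulator of DNA end joining, Shfl (A230050P20Rik), an antiviral protein induced by interferon, and Trir (2310036O22Rik). The clone prefix names the source library of the cDNA. Prefixes of testis libraries were carried by 72 of the 177 members (40.7%) and by 912 of all 1923 RIKEN symbols (47.4%).

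The libraries held few counts assigned to genes. Depth here means these counts, as totals of sequenced reads were not used. Those with si-CTL held 221767 to 326686 counts, those with si-Ctnnb1 295677 to 313074, those with eGFP 113481 to 122304 and those with S45Y 91468 to 117419. The ribosomal RNA precursor Rn45s took between 1.61% and 15.4% of a library, with the higher shares in the plasmid libraries. The si-CTL libraries contained 13, 38 and 28 Ctnnb1 counts and the si-Ctnnb1 libraries 0, 11 and 3, a log2 fold change of -2.54 (adjusted p = 0.00491, edgeR). The eGFP libraries contained 6, 11 and 10 and the S45Y libraries 11, 4 and 18, which overlap (log2 fold change 0.51, SE 0.55, adjusted p = 0.989, edgeR), so a higher Ctnnb1 count in S45Y was not detectable at this depth. Of 10 cholangiocyte markers, Krt18 (1150 counts), Spp1 (609), Krt8 (589) and Krt19 (365) were well counted, while the defining markers Epcam and Cftr were listed at 0. Krt8 and Krt18 were higher in eGFP than in si-CTL, and none of the 4 markers tested differed in silencing or activation. Of 4 hepatocyte markers 3 were at 0 and the list held 35 counts in all, and of 6 fibroblast or stellate cell markers 3 were at 0 and the list held 11. Of 5 leukocyte markers 3 were at 0, while Cd68 had 174 counts and was not called in any comparison.

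Together the 177 members held 210136 of all 2424120 counts, or 8.67%. Their share of a library was 8.88%, 8.85% and 8.94% in si-CTL and 9.68%, 9.91% and 9.62% in si-Ctnnb1. In the plasmid libraries it was lower, at 6.93%, 7.32% and 6.59% in eGFP and 6.66%, 6.83% and 6.92% in S45Y. The si-Ctnnb1 libraries all lay above the si-CTL libraries, the siRNA libraries all lay above the plasmid libraries, and eGFP and S45Y overlapped. The group means were 8.89% ± 0.0446 (SD, n = 3) for si-CTL, 9.74% ± 0.153 for si-Ctnnb1, 6.95% ± 0.366 for eGFP and 6.80% ± 0.132 for S45Y. With Rn45s left out of the denominator they were 9.29%, 9.95%, 7.94% and 7.82%, in the same order. A lower share in bulk RNA can come from fewer cells with a transcript, less of it per cell or more of other RNAs. These cannot be told apart.

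**Figure D1:**
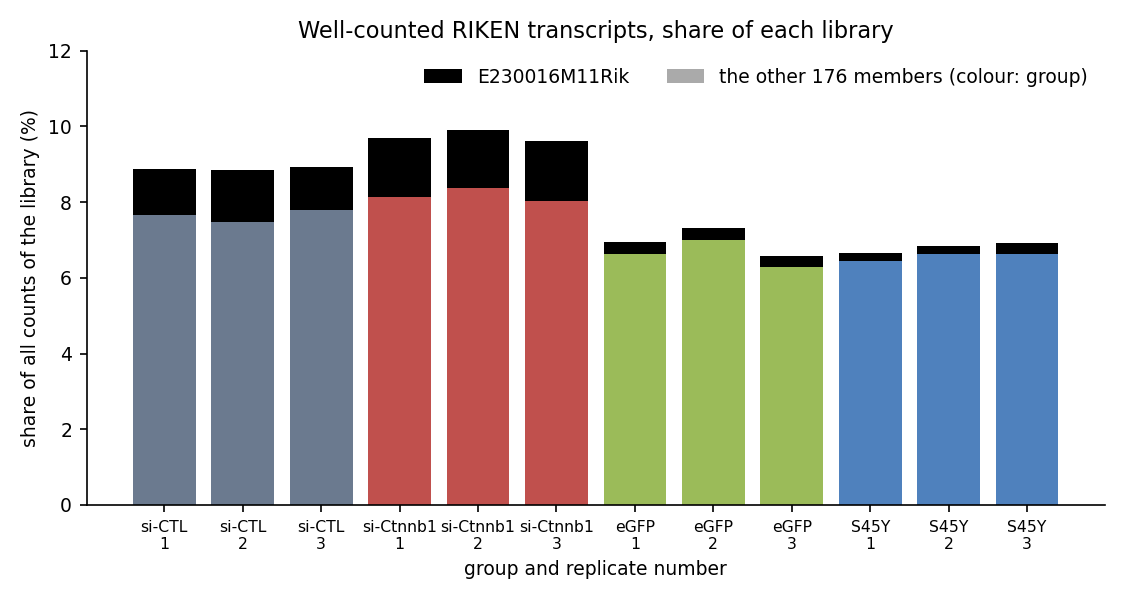
Share of all counts held by the 177 well-counted RIKEN transcripts, in percent, for each of the 12 libraries by group and replicate number. The black part is E230016M11Rik and the coloured part the rest; the black part shrinks from 1.56% on average in si-Ctnnb1 to 0.241% in S45Y.

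The counts were unevenly spread over the members. The median member had 482 counts, 46 had 1000 or more and 53 had under 300. The 12 members with the most counts held 42.1% of all member counts. They were E230016M11Rik, 1700007J10Rik, C230091D08Rik, 4930473A02Rik, A230103J11Rik, 4930513N10Rik, 4930579G18Rik, D130020L05Rik, 2610020C07Rik, 9530027J09Rik, 1600012H06Rik and 0610040F04Rik. Only 1600012H06Rik among them is protein coding in RefSeq. C230091D08Rik is a RefSeq synonym of Snhg14, the host transcript of small nucleolar RNAs in an imprinted region, although Snhg14 has a row of its own at 0 counts. Per kilobase of exon the median was 240 counts over the 165 members with a gene model, and the highest were E230016M11Rik with 6979, 1700007J10Rik with 6082 and 4930579G18Rik with 5692. Only 5 members were at 0 in any library.

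What most members share is a gene on the other strand. Of the 165 members that matched a GENCODE M21 gene model on mm10, 138 (83.6%, 95% Wilson interval 77.2 to 88.5) have exon bases in common with a gene on the opposite strand. The same held for 56.2% of the other genes with at least 120 counts, for 24.2% of all matched genes and for 21.9% of the RIKEN symbols below the minimum. With at least 100 shared exon bases, the share of members was 73.9%. For 132 members the overlapping gene has a row of its own in the count table. In 120 of these pairs the RIKEN transcript had more counts, and in 12 the gene on the other strand did. Only the RIKEN transcripts had to reach 120 counts. The opposite gene was under 120 in 86 pairs, so the rule fixed the order there. The other values of these pairs carry the same choice. The median was 630.5 counts for the RIKEN transcripts and 58.5 for the genes opposite them, and 2 of the latter were at 0. Per kilobase of exon the RIKEN transcript was higher in 122 of the pairs. In 48 pairs the 5′ ends overlapped, in 49 the 3′ ends, in 30 the RIKEN gene lay within the other gene and in 5 it enclosed the other. The library kit's strandedness and the strand setting of the counting are not given in the sources used here. Without them, reads from a RIKEN transcript and from the gene opposite it cannot be told apart, and every value of an overlapping pair carries that uncertainty. Low and zero counts of other genes, markers included, carry it too.

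**Figure D2:**
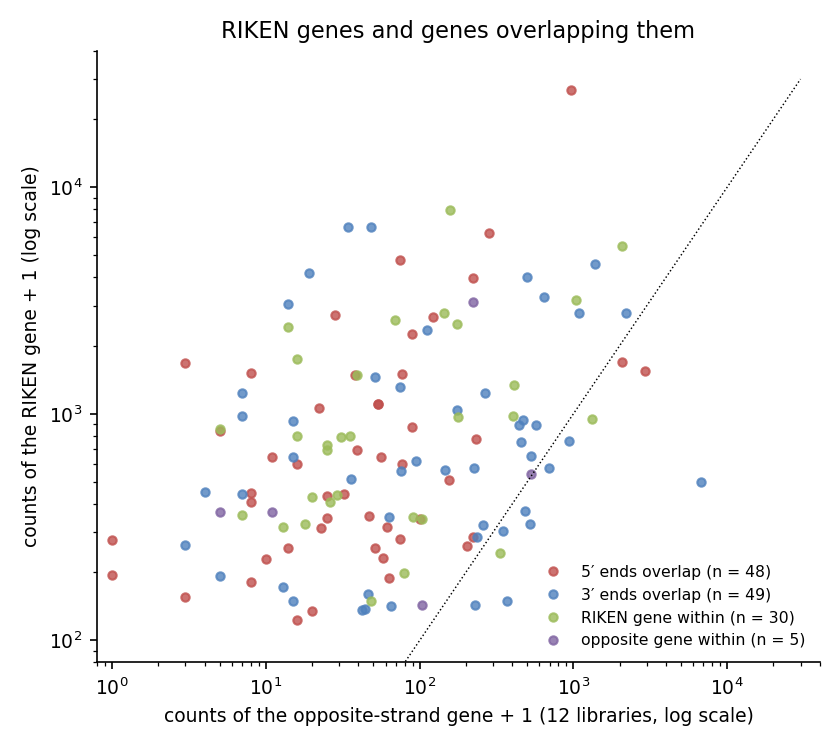
Summed counts over 12 libraries of 132 RIKEN genes (vertical axis) against those of the gene that shares exon bases with them on the opposite strand (horizontal axis), both plus 1 on log scales, coloured by the kind of overlap. Points above the dotted line of equal counts are the 120 pairs in which the RIKEN gene had more counts. Only the RIKEN genes were chosen by a minimum count, and the opposite gene was under that minimum in 86 pairs.

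E230016M11Rik had the most counts and was the 1 member that passed the test in silencing, between the controls and in the difference of both responses. This long noncoding RNA lies on chromosome 6 of mm10 (67036599 to 67080654, plus strand). Its 5′ end lies within Gadd45a (67035096 to 67037457, minus strand), a stress-induced gene of growth arrest and DNA damage. They share 337 exon bases, and their starts are 858 bases apart. With 26805 counts it took 12.8% of all member counts and ranked 3rd among all genes of the table, against 970 counts for Gadd45a. To show the sequence at this pair of opposed starts, both promoters are given from RefSeq (GRCm38.p6), each from 250 bases before to 50 after the start. The E230016M11Rik window is chr6:67036349-67036648 (plus strand) and the Gadd45a window chr6:67037358-67037657 (minus strand), with matches to the motifs described below in capitals:
E230016M11Rik: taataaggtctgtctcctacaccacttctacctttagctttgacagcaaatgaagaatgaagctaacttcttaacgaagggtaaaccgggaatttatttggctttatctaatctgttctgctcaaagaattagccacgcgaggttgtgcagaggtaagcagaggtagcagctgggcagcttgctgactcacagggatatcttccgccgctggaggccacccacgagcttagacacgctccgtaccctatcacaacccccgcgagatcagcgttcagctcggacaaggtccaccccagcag
Gadd45a: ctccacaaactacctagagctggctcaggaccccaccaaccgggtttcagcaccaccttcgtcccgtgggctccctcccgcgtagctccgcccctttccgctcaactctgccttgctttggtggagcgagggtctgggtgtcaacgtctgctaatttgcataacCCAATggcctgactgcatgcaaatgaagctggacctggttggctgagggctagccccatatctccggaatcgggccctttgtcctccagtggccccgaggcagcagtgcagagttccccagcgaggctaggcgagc

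The motifs searched on both strands were the TATA box (TATAAA), the CCAAT box (CCAAT), the E-box (CACGTG), and the TCF/LEF motif of β-catenin's DNA-binding partners (ATCAAAG). None overlapped another in the windows shown. The E230016M11Rik window held none of them, and the Gadd45a window held 1 CCAAT box. Of all 32851 promoter windows, 13.6% held a TATA box, 37.4% a CCAAT box, 7.15% an E-box and 3.73% the TCF/LEF motif. RefSeq windows were found for 136 members, 148 windows in all. Of these 7.43% held a TATA box, 33.8% a CCAAT box, 10.1% an E-box and 4.05% the TCF/LEF motif. The median number of CpG dinucleotides was 13 in the members' windows and 7 in all windows.

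In counts per 1000000 counts of the TMM-scaled library (CPM), E230016M11Rik stood at 12102, 13410 and 11202 in si-CTL and at 15611, 15585 and 16000 in si-Ctnnb1. In the plasmid libraries it was at 2992, 3065 and 3185 in eGFP and at 2319, 2072 and 2862 in S45Y. All si-Ctnnb1 libraries lay above all si-CTL libraries, all S45Y libraries lay below all eGFP libraries, and the plasmid libraries lay far below the siRNA libraries. Its log2 fold change was 0.33 in silencing (SE 0.06, adjusted p = 0.00178, edgeR) and -0.31 in activation (SE 0.14, adjusted p = 0.792, edgeR). With a library left out, the activation value lay between -0.48 and -0.21, the first without S45Y replicate 3 and the second without S45Y replicate 2. Between the controls, eGFP against si-CTL, it was -1.93 (SE 0.10, adjusted p = 3.05e-22, edgeR). For Gadd45a the si-CTL libraries held 124, 155 and 126 counts and the si-Ctnnb1 libraries 140, 126 and 157. The eGFP libraries held 17, 31 and 21 and the S45Y libraries 25, 28 and 20. Its log2 fold change was -0.06 in silencing (SE 0.16, adjusted p = 0.927, edgeR) and -1.21 between the controls (SE 0.24, adjusted p = 0.000131, edgeR). In activation that of Gadd45a was 0.35 (SE 0.34, adjusted p = 0.989, edgeR).

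Silencing asks which transcripts follow the loss of β-catenin. All 177 members passed the filter on low counts, and 6 had an adjusted p below 0.05 in edgeR, 5 of them higher in si-Ctnnb1 and 1 lower. Over all 3484 genes tested, 1.55% were called, 0.804% higher and 0.746% lower. At an unadjusted p of 0.05 or less, 33 members were higher (6.43% of all genes) and 11 lower (6.08% of all genes). With a change of over 1.5-fold and an unadjusted p below 0.05, there were 15 members (7.12% of all genes). In 37 members every si-Ctnnb1 library lay above every si-CTL library (10% of all genes), and in 8 every one lay below (7.89% of all genes). The median log2 fold change was 0.11 over the members and -0.003 over all genes, and 111 of 177 members were above 0. Among the 133 long noncoding members the median was 0.14, and among the 42 protein-coding members it was 0.02. The 95 other well-counted long noncoding RNAs had a median of 0.08.

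Besides E230016M11Rik, the counts assigned to 4 long noncoding RNAs were higher in si-Ctnnb1. Each overlaps a gene on the other strand, so the uncertainty of overlapping pairs holds for them. The level of 9930014A18Rik, on chromosome 15 (60822271 to 60831793, plus strand) within Fam84b on the opposite strand, was 644, 569 and 606 CPM in si-CTL and 1003, 1045 and 923 CPM in si-Ctnnb1. The groups were far apart relative to their spread, and the log2 fold change was 0.68 (SE 0.12, adjusted p = 0.000586, edgeR). The level of 2310068J16Rik, on chromosome 15 (99972158 to 99973287, minus strand) within the RNA-binding protein gene Larp4, was 982, 777 and 1011 CPM in si-CTL and 1574, 1430 and 1308 CPM in si-Ctnnb1. Again the groups did not overlap, with a log2 fold change of 0.61 (SE 0.11, adjusted p = 0.000914, edgeR). Larp4 itself had 175 counts over the 12 libraries and did not pass the test (log2 fold change -0.30, SE 0.36, adjusted p = 0.821, edgeR).

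On the X chromosome (48276792 to 48285426, minus strand), 9530027J09Rik meets the 3′ end of Utp14a, a ribosome biogenesis gene with 18 counts. It was at 1773, 1670 and 1627 CPM in si-CTL and at 2043, 2734 and 2370 CPM in si-Ctnnb1, without overlap. It rose by 0.47 on the log2 scale (SE 0.10, adjusted p = 0.0042, edgeR), and the call was lost without si-Ctnnb1 replicate 2 (adjusted p = 0.0934, edgeR). The start of 1700101I11Rik on chromosome 6 (129531950 to 129533817, minus strand) overlaps that of Gabarapl1, an autophagy gene with 21 counts. It was at 302, 298 and 385 CPM in si-CTL and at 581, 511 and 502 CPM in si-Ctnnb1, a log2 fold change of 0.66 (SE 0.16, adjusted p = 0.0201, edgeR). The groups did not overlap, but without any single library other than si-CTL replicate 3 the adjusted p from edgeR was above 0.05, up to 0.124.

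The 1 member that fell was 1700099I09Rik, on chromosome 13 (102760255 to 102761896, plus strand) within the kinase gene Mast4. It was at 249, 244 and 283 CPM in si-CTL and at 129, 172 and 146 CPM in si-Ctnnb1. The groups did not overlap, and the log2 fold change was -0.83 (SE 0.22, adjusted p = 0.0377, edgeR). The call was lost in 8 of 14 alternatives, among them the omission of any 1 of the 6 libraries, with adjusted p up to 0.211 in edgeR. For each of the 6 called members taken alone, the two-sided exact permutation test over 3 against 3 libraries gave p = 0.1, the smallest that this design allows.

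To set the starts of the called members beside each other, the RefSeq promoters of the other 3 that have an entry are printed (GRCm38.p6, chr15:99973238-99973537 on the minus strand, chr6:129533235-129533534 on the minus strand and chr13:102760005-102760304 on the plus strand). Capitals mark motif matches as above. The window of 1700101I11Rik lies within its GENCODE gene model and does not reach the start described above. The first pair held none of the 4 motifs and 29 and 23 CpG dinucleotides. The window of 1700099I09Rik, the member that fell, held a TATA box, a CCAAT box and 1 CpG:
2310068J16Rik: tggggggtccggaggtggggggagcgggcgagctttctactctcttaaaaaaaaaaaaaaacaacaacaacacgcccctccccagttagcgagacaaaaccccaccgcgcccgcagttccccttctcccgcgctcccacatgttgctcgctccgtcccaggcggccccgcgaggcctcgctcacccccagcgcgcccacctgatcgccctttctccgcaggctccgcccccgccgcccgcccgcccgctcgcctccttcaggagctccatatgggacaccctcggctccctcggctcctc
1700101I11Rik: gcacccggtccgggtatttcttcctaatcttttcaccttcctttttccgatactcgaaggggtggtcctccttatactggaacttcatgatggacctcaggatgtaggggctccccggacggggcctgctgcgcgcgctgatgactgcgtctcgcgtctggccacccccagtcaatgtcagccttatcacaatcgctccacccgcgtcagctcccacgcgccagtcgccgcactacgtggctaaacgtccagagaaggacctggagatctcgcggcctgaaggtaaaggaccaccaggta
1700099I09Rik: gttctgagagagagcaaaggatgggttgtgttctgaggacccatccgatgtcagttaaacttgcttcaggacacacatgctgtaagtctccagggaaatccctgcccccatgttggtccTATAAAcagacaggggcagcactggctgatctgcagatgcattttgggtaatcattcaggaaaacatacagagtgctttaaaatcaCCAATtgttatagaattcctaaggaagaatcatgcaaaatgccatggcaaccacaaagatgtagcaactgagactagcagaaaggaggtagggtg

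**Figure D3:**
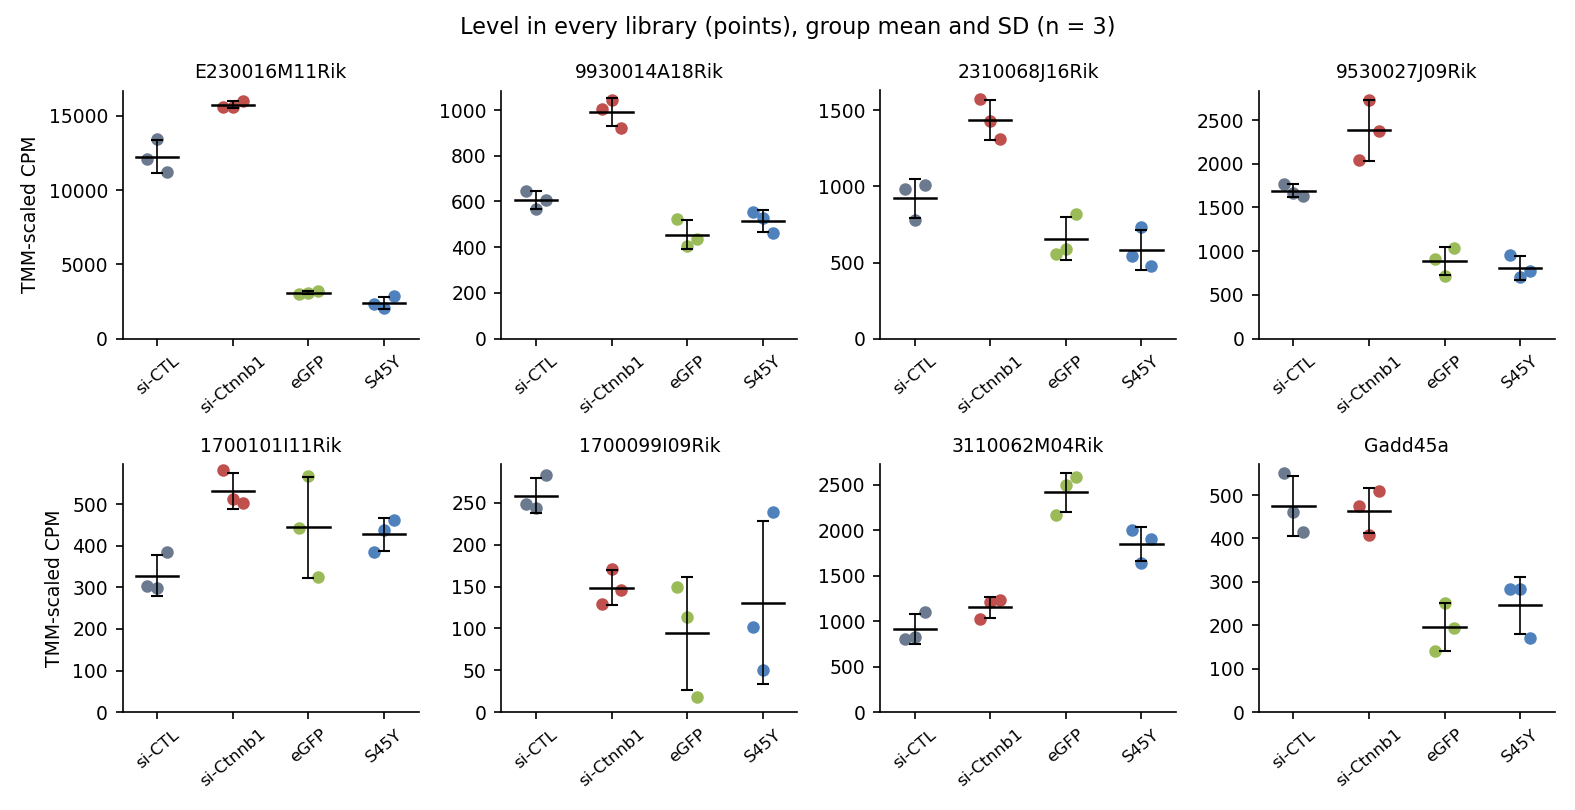
Level in TMM-scaled CPM of the 6 members called in silencing, of 3110062M04Rik and of Gadd45a, with a point for each library, a line for the group mean and bars for the SD (n = 3). The si-Ctnnb1 points lie above all si-CTL points in the first 5 panels and below them for 1700099I09Rik.

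The remaining members with the largest silencing values had few counts and adjusted p above 0.05 in edgeR. For 1700034H15Rik, the counts were 10, 11 and 9 in si-CTL and 29, 28 and 20 in si-Ctnnb1 (log2 fold change 1.23, SE 0.41, adjusted p = 0.126, edgeR). For 4930404I05Rik they were 7, 14 and 18 against 29, 32 and 36 (1.21, SE 0.36, adjusted p = 0.0713, edgeR). For 1700086O06Rik the log2 fold change was 0.85 (SE 0.24, adjusted p = 0.0645, edgeR). These 3 had no overlap between groups. In the other direction, the si-CTL libraries contained 20, 32 and 28 counts of 4833422C13Rik and the si-Ctnnb1 libraries 11, 14 and 13 (-1.17, SE 0.37, adjusted p = 0.0974, edgeR). The value of 1700030K09Rik (-0.85, SE 0.40, adjusted p = 0.374, edgeR) rested on si-CTL replicate 2, with 13, 48 and 15 counts in si-CTL and 11, 15 and 18 in si-Ctnnb1; without that library it was -0.17.

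By position, the members' silencing values were as follows. Of the 48 members whose 5′ end overlaps that of the opposite gene, 40 were above 0, with a median log2 fold change of 0.29. The 288 other well-counted genes in this arrangement had a median of 0.06, and 165 of them were above 0. Of the 47 members that meet the opposite gene at the 3′ end, 28 were above 0, with a median of 0.08, as were 471 of 818 other well-counted genes tested (median 0.06). Of the 31 that lie within it, 18 were above 0 (median 0.02), as were 38 of 74 others (median 0.02). Of the 12 that enclose it, 6 were above 0 (median 0.01), as were 72 of 169 others (median -0.05). These classes go by the opposite gene with the largest overlap, with or without a row in the count table. For members with no opposite-strand exon overlap the median was -0.11 (27 members), and for the other well-counted genes without one it was -0.04. The difference between positions was not tested.

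Activation asks the reverse question, what differs after transfection of the stabilized mutant. Only 143 of the members passed the filter in these shallower libraries, and 0 were called by edgeR, as were 0 by DESeq2 (0% of the 1819 genes tested). At an unadjusted p of 0.05 or less there were 5 members in edgeR (5.88% of all genes) and 4 in DESeq2. Of the 5, 2 were higher (3.63% of all genes) and 3 lower (2.25% of all genes), and 2 had an unadjusted p below 0.05 and a change over 1.5-fold (4.62% of all genes). The S45Y libraries all lay above the eGFP libraries in 5 members (5.06% of all genes) and all below in 10 (5.99% of all genes). The median log2 fold change was -0.01 over the members and 0.02 over all genes, and single values ran from -1.22 to 0.85. Among these 5, the higher values were those of 4930486I03Rik (0.85, SE 0.39), which overlaps the cystic kidney disease gene Pkhd1, and 2610020C07Rik (0.44, SE 0.16), which was 0.28 without S45Y replicate 1. The lower ones were those of 2210016L21Rik (-1.22, SE 0.39), 3110062M04Rik (-0.34, SE 0.15) and E230016M11Rik. The counts of 2210016L21Rik were 27, 38 and 25 in eGFP and 16, 5 and 11 in S45Y. For all 5 the adjusted p in edgeR was between 0.469 and 0.792.

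**Figure D4:**
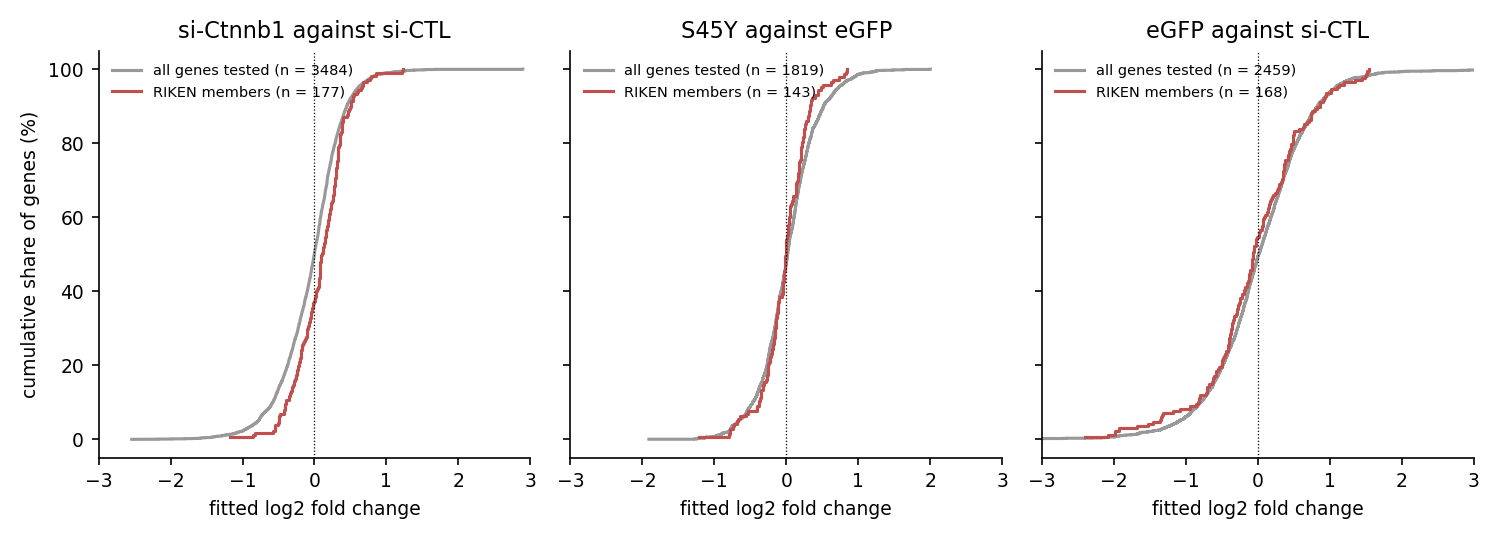
Cumulative share of genes, in percent, by fitted log2 fold change for the RIKEN members (red) and all genes tested (grey) in silencing, activation and the comparison of the controls; the horizontal axis is limited to -3 to 3. In silencing the red curve lies to the right of the grey one around 0, with medians of 0.11 and -0.003, and in activation the medians are -0.01 and 0.02.

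Whether a member responded differently to silencing and to activation was tested as the difference of both log2 fold changes over all 12 libraries. Only E230016M11Rik passed, 1 of 177 members, against 0.534% of all 2996 genes. The difference was 0.70 (SE 0.15, adjusted p = 0.00712, edgeR), with the silencing value positive and the activation value negative. Next came 3110062M04Rik, the gene of Cyren, on chromosome 6 (34871771 to 34878060, minus strand), with a difference of 0.71 (SE 0.19, adjusted p = 0.0513, edgeR). At an unadjusted p of 0.05 or less there were 22 members with a positive and 4 with a negative difference (5.41% and 4.47% of all genes, 9.88% in all), and 23 had an unadjusted p below 0.05 and a size over 1.5-fold (8.54% of all genes). The largest of these were 0610030E20Rik (1.71, SE 0.66), 4930526I15Rik (1.41, SE 0.58) and 2310036O22Rik (1.31, SE 0.58) on the positive side. On the negative side they were E030018B13Rik (-1.63, SE 0.63), 1700099I09Rik (-1.30, SE 0.52) and 1700020L24Rik (-1.08, SE 0.45). Their adjusted p lay between 0.298 and 0.387 in edgeR. With a library left out, the difference of 1700099I09Rik ran from -1.82 to -0.46, being -0.46 without S45Y replicate 3 and -0.86 without eGFP replicate 3. That of 2310036O22Rik was 0.86 without eGFP replicate 2.

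The largest contrasts among the members were between the control transfections. The eGFP and si-CTL libraries differ in nucleic acid, reagent and time together, and these cannot be told apart. They also differ in depth and in the share of Rn45s. Of 168 members tested, 43 passed an adjusted p of 0.05 in edgeR, 17 higher in eGFP and 26 lower. Of all 2459 genes, 16.9% passed, 7.93% higher and 8.95% lower, and of the other well-counted genes 16.3% passed. With no filter on low counts, the median of all genes was at -0.13 and the split of the members was 4 higher and 38 lower. What moved the split was not tested. The 43 were 28 of the 125 long noncoding members tested (22.4%), 14 of the 41 protein-coding members tested (34.1%) and 1 without a RefSeq entry, and the difference between these classes was not tested. Of the 90 other well-counted long noncoding RNAs tested, 27.8% were called, 6 higher and 19 lower. Of the 2085 other well-counted protein-coding genes tested, 15.6% were called. Silencing, activation and this comparison share control libraries, so values of a member in several of them are not independent.

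Protein-coding members moved in both directions. Cyren (3110062M04Rik) was at 809, 830 and 1106 CPM in si-CTL and at 2167, 2498 and 2581 CPM in eGFP, and it rose by 1.45 on the log2 scale (SE 0.13, adjusted p = 2.24e-13, edgeR). The S45Y libraries, at 2002, 1646 and 1905 CPM, were below the eGFP libraries and above all siRNA libraries. On chromosome 17 (14943184 to 14959570, plus strand), 1600012H06Rik was at 1844, 2048 and 1883 CPM in si-CTL and at 775, 689 and 743 CPM in eGFP, a log2 fold change of -1.33 (SE 0.14, adjusted p = 2.45e-11, edgeR). Neither pair of groups overlapped. For Shfl (A230050P20Rik) the counts were 55, 59 and 58 in si-CTL and 7, 4 and 6 in eGFP, with a log2 fold change of -1.99 (SE 0.39, adjusted p = 0.000121, edgeR). All its eGFP counts lay under the filter's minimum count of 10.

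Several members of lower count changed by a similar size. The counts of 1700020L24Rik were 66, 120 and 132 in si-CTL and 10, 16 and 5 in eGFP (-1.98, SE 0.30, adjusted p = 1.65e-06, edgeR). The lowest log2 fold change of all members was that of the long noncoding 1700001G11Rik, with 27, 39 and 31 counts against 3, 3 and 1 (-2.41, SE 0.57, adjusted p = 0.00167, edgeR). For Tex45 (1700019B03Rik), which is protein coding, they were 32, 25 and 52 against 3, 3 and 4 (-2.09, SE 0.52, adjusted p = 0.00278, edgeR). All eGFP counts of 1700001G11Rik and Tex45 lay under the filter's minimum count of 10. Both passed the filter through si-CTL, where they are high, so their sizes and p-values rest on few eGFP counts. Upward, the si-CTL libraries contained 19, 35 and 33 counts of 6430531B16Rik, now Spef1l, and the smaller eGFP libraries 45, 27 and 25 (1.52, SE 0.30, adjusted p = 0.000138, edgeR), and 4930455H04Rik reached 1.35 (SE 0.24, adjusted p = 2.02e-05, edgeR). The highest value, 1.55 for 4931403E22Rik, and that of C430002N11Rik (1.51) came from groups that overlapped in CPM (two-sided exact permutation test, p = 0.2 for each).

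The remaining called members ranged from 0.36 to 1.49 upward and from -1.68 to -0.42 downward on the log2 scale. Those higher in eGFP were 2810474O19Rik, 2210016L21Rik, 2210416O15Rik, C130083M11Rik, 4930592A05Rik, A630072M18Rik, 1110002L01Rik, A930012L18Rik, 4930404N11Rik, 0610040F04Rik, D330041H03Rik and B230206H07Rik. The call of B230206H07Rik, the smallest of these, was lost in 12 of 14 alternatives. That of C130083M11Rik was lost in 9 of 14 and that of 2810474O19Rik in 7 of 14. Those lower in eGFP were 3010026O09Rik, E030018B13Rik, G530011O06Rik, 1700099I09Rik, 9230105E05Rik, 3110002H16Rik, C130050O18Rik, 9530027J09Rik, 6430562O15Rik, 4930579G18Rik, 4933400F21Rik, 1700123O20Rik, 3110021N24Rik, 2610020C07Rik, E130218I03Rik, A230103J11Rik, 9130221H12Rik, 4930549G23Rik, E130317F20Rik and D130020L05Rik. The calls of C130050O18Rik and E130317F20Rik were each lost in 6 of 14 alternatives.

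**Figure D5:**
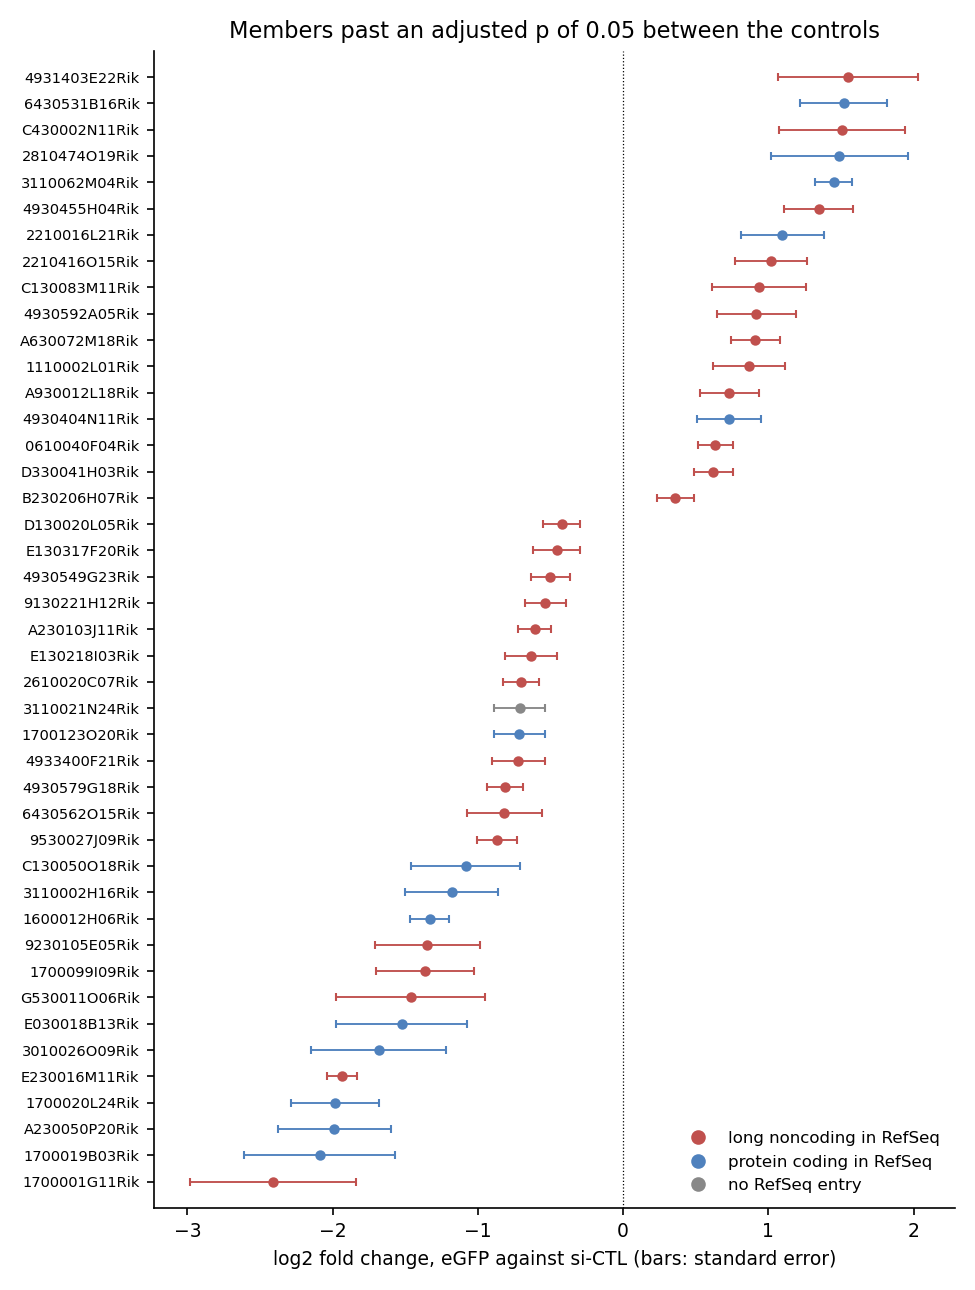
Log2 fold change with standard error between the control transfections (eGFP against si-CTL) for the 43 members with an adjusted p below 0.05 in edgeR, ordered by value and coloured by RefSeq class. The values run from -2.41 (1700001G11Rik) to 1.55 (4931403E22Rik).

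In some pairs both the RIKEN transcript and the gene opposite it were called between the controls. Those with the same sign included E230016M11Rik with Gadd45a, and 4930579G18Rik (-0.81) and 1700123O20Rik (-0.71) with Acin1 (-0.62), a gene of RNA splicing. The signs were opposite for D330041H03Rik (0.62) and the lipid transporter gene Abca3 (-1.34), but the call of D330041H03Rik was lost with no filter (adjusted p = 0.257, edgeR) and without eGFP replicate 2. Among the 6 members called in silencing, 2 had an opposite gene with enough counts to be tested, and neither of these was called.

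Known noncoding RNAs outside the RIKEN nomenclature give a frame for these values. Of 59 named noncoding genes, 49 had a row, 15 of them at 0, and only 7 reached the minimum of 120. None passed in silencing, where 9 were tested, or in activation, where 7 were. Between the controls 3 were higher and 1 lower of 7 tested (7.93% and 8.95% of all genes). The largest log2 fold change of the list was that of Gm15441 (2903 counts), 5.07 (adjusted p = 3.29e-34, edgeR). That of Rmrp (3052 counts) was 0.41 (adjusted p = 0.0178, edgeR). Malat1 (3414 counts), a nuclear speckle RNA, had a log2 fold change of 1.22 (adjusted p = 1.67e-11, edgeR), and Tsix (12328 counts) one of -0.40 (adjusted p = 0.00432, edgeR). Xist, which Tsix overlaps on the opposite strand, had 97 counts, so the uncertainty of overlapping pairs holds for these values too. Tsix was also the 1 gene of this list whose responses to silencing and activation differed, by -0.63 (adjusted p = 0.0312, edgeR).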

How the data were processed

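RNA of transfected SMCC cells was sequenced in 12 libraries, 3 for each of 4 groups taken from the sample titles. The authors trimmed reads with Trimmomatic 0.38, aligned them to mm10 with HISAT2 2.1.0 and counted them per gene with HTSeq 0.11.2. They deposited whole-number counts per gene symbol, not normalized. The annotation and the strand setting are not given in the sources used here. All columns of the table were used. A library's share of a small count carries counting error as well as the spread between libraries, and the Wilson intervals cover counting error only.

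The members and all lists were chosen with earlier results of these data known. Counts were tested with edgeR 4.0.16 (R 4.3.3), using the quasi-likelihood test after filterByExpr (minimum count 10, minimum total 15) and TMM normalization, separately for silencing, activation and the controls, and over all 12 libraries for the difference. P-values were adjusted by Benjamini-Hochberg over all genes tested, and a gene with an adjusted p below 0.05 was called. Standard errors were derived from the F statistic. The procedure was tested on simulated data. Alternatives were DESeq2 1.42.0, other scalings and filters, a replicate block, an unadjusted p with or without a 1.5-fold change and the omission of each library. Libraries of a group were compared pairwise and none was a copy of another.

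Named were the 12 members with the most counts, all called members, up to 3 members with the largest fold changes in each direction at an unadjusted p of 0.05 or less, the members and rows nearest the minimum, and the gene opposite each or, without one, the gene with the most counts within 10 kb, which the text names only for members it describes singly. Genes were matched to GENCODE M21 by symbol (151 members) or RefSeq synonym (14), and 12 had no model. Promoters came from RefSeq (GRCm38.p6), whose starts can differ from those of GENCODE. Lists of named noncoding RNAs and of cholangiocyte, hepatocyte, fibroblast or stellate cell and leukocyte markers were counted. The result of 1 overlapping pair is not reported here.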

Additional observations from a re-analysis of the deposited data

Results flagged for a closer look

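The response of E230016M11Rik to silencing and its response to activation differed in a test of the difference itself, by 0.70 on the log2 scale (adjusted p = 0.00712, edgeR). The si-Ctnnb1 libraries (15611, 15585 and 16000 CPM) all lay above the si-CTL libraries (12102, 13410 and 11202 CPM), and the S45Y libraries (2319, 2072 and 2862 CPM) all lay below the eGFP libraries (2992, 3065 and 3185 CPM). Of all genes tested, 10% lay apart upward in silencing and 5.99% downward in activation. The activation value taken alone was not called (log2 fold change -0.31, adjusted p = 0.792, edgeR). The difference passed under all 19 alternatives, with adjusted p between 0.000133 and 0.041 in edgeR and DESeq2. The siRNA and plasmid arms differ in time, reagent, depth and share of Rn45s, and what part these have in the difference cannot be told apart.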

How the results depend on the processing

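Of the 6 calls in silencing, 3 held under all 14 alternatives (9930014A18Rik, 2310068J16Rik and E230016M11Rik). Omission of a library gave 3 to 5 calls, all among the 6, with 3 without si-Ctnnb1 replicate 2, and the members' median was then between 0.10 and 0.14. An unadjusted p gave 44 calls, and 15 with the 1.5-fold rule. In activation those rules gave 5 and 2 calls. In the difference they gave 26 and 23, while DESeq2, the omission of Rn45s, of S45Y replicate 2 or of si-CTL replicate 3 gave 2 in place of 1. Between the controls 22 of 43 calls (4 higher, 18 lower) held under every alternative, the omission of a library gave 30 to 38 calls, of which 26 to 37 were among the 43, with 30 and 26 without eGFP replicate 2, and the median of -0.07 became -0.15 with library totals, -0.36 with no filter and between -0.15 (without eGFP replicate 2) and -0.073 (without eGFP replicate 1) with a library left out. DESeq2 called 37 members there.

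Same-numbered libraries did not deviate together (correlations between -0.05 and 0.03), so the numbers pair nothing. With the replicate block, 7 members were called in silencing, 0 in activation, 39 between the controls and 2 in the difference.

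The silencing value of 0610030E20Rik (-0.02) changed sign with no filter (0.0073), in the fit of all 12 libraries (0.00205) and with libraries left out (-0.16 to 0.12). The activation value of 1700099I09Rik (0.52) ran from -0.33 to 0.99 with a library left out, being -0.33 without S45Y replicate 3. The causes were not tested. Of the other member values recomputed 0 changed sign. Values of genes opposite a member and the difference of 3110062M04Rik were not recomputed.

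The members' share was 8.69% of the TMM-scaled size in si-CTL. In si-CTL, si-Ctnnb1, eGFP and S45Y it was 9.29%, 9.95%, 7.94% and 7.82% without Rn45s. Without E230016M11Rik it was 7.64%, 8.18%, 6.64% and 6.56%. With a minimum of 60 it was 9.08%, 9.93%, 7.11% and 6.99%, and with 240 it was 8.62%, 9.47%, 6.67% and 6.54%. The share of members with an opposite-strand overlap was 73.9% for at least 100 bases. At the depth of the plasmid libraries 34 members could not be tested in activation.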
